A study of Mus musculus with 7 samples.

Results

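Interferon-inducible GTPases are large guanosine triphosphate hydrolases that cells make in quantity after an interferon signal. The 10 genes Gbp2, Gbp3, Gbp7, Igtp, Irgm1, Irgm2, Ifi47, Iigp1, Mx1 and Mx2 were listed for this account, chosen on the comparison of the same libraries that is described here. Of these, 8 were measured among the 32285 genes counted, and Mx1 and Mx2 were not analysed here. RNA was sequenced from explanted utricles, the vestibular organs that sense gravity, of wild-type C57BL/6J mice at postnatal day 2. All of the explants were damaged with the aminoglycoside gentamicin (2 mM for 24 h, which kills hair cells) and were collected on day 5. The Gent+Fos OE group (4 libraries) also received an adeno-associated virus, AAV-PHP.eB, carrying the transcription factor gene Fos for 48 h, and the Gent group (3 libraries) is labelled with gentamicin alone. A library pools 12 utricles, and replicates are therefore separate pools. In such whole-organ RNA, fewer cells of a type and less RNA per cell cannot be told apart. The methods of the study state 3 replicates per condition, whereas the labels give 4 and 3. One figure legend of the study names a control AAV group for this comparison, while the labels name no virus for Gent. Whether these explants received one was therefore not settled by the sources used here, and the effect of a virus on interferon-induced genes was not tested. The run names inside the Gent counts contain the letters sh, which can also stand for shRNA. The sources do not say whether both groups were cultured and prepared together, so every difference below rests on the labels, and a difference in preparation cannot be told apart from that of the groups.

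Type I interferons act through the receptor pair Ifnar1 and Ifnar2, and type II interferon through Ifngr1 and Ifngr2. Janus kinases on these receptors phosphorylate STAT factors, which bind DNA together with Irf9 at interferon-stimulated response elements (ISRE), or without it at gamma-activated sites (GAS). Among the induced genes, the guanylate-binding proteins (GBP) coat vacuoles and bacteria and help to break them open, and the immunity-related GTPases (IRG) attack the vacuole of intracellular parasites. Irgm1, Irgm2 and Igtp (also called Irgm3) are regulatory IRG proteins that sit on the cell's own membranes and hold the effector IRG proteins in check, while Iigp1, Tgtp1 and Tgtp2 are effectors. The Mx proteins block viruses and are defective in most laboratory mouse strains, C57BL/6 included.

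The promoters of the members are shown first. Their sequence was not used to choose the genes, but the list is one of interferon-inducible genes. The ISRE is a site of the interferon response, so the share of members with a match is a description only. RefSeq promoter windows on GRCm38.p6, from 250 bases before to 50 bases after the annotated start, were matched for 7 of the 8 measured members, with 2 windows for Gbp3. They were searched on both strands for the ISRE core GAAANNGAAA, the GAS TTCNNNGAA and the AP-1 site TGANTCA, the sequence bound by Fos and Jun dimers. The ISRE core was found in 6 of the 7 members, against 3.44% of all 32851 windows and 3.99% of the 27025 genes that have one. A GAS match was found in 3 members (8.3% of all windows) and an AP-1 match in 2 (7.81% of all windows). All matches fell in the 120 bases before the start, which are printed below from position -120 to -1 in the direction of the gene, with the matched letters in capitals. No GAS match overlaps an ISRE match here, while the ISRE pairs of Gbp3 and of Irgm1 share 4 bases. A match is a run of letters and not a measured binding site.

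For the GBP genes on chromosome 3, the stretches are chr3:142620543-142620662 for Gbp2, chr3:142559924-142560043 for Gbp3 and chr3:142530216-142530335 for Gbp7, all on the plus strand. Each holds the ISRE core on the opposite strand and is read here as its reverse complement, and Gbp2 holds an AP-1 match upstream of it.
Gbp2: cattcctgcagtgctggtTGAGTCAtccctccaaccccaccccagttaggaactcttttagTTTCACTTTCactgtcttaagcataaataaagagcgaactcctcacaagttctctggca
Gbp3: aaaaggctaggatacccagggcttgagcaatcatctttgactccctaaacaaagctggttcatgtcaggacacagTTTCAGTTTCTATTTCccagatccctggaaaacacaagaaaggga
Gbp7: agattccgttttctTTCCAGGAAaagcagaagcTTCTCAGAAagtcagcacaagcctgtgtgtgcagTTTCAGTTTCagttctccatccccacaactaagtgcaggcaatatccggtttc

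For the IRG genes on chromosome 11, the stretches are chr11:48871421-48871540 on the minus strand for Irgm1, and chr11:58199436-58199555, chr11:58214857-58214976 and chr11:49076467-49076586 on the plus strand for Igtp, Irgm2 and Ifi47. Ifi47 is shown as the member without a match.
Irgm1: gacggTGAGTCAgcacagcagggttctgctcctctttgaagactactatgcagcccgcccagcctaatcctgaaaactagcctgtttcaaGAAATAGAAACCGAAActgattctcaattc
Igtp: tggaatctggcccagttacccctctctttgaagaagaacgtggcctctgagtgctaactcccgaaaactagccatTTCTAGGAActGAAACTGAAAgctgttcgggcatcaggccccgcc
Irgm2: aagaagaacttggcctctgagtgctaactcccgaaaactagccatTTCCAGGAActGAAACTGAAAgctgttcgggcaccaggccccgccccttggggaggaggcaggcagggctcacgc
Ifi47: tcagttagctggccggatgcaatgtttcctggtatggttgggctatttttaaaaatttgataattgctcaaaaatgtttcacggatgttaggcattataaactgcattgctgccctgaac

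The ISRE match began at position -59 in Gbp2, -53 in Gbp7, -34 in Igtp and -64 in Irgm2. Gbp3 had a pair of overlapping matches at -45 and -39, and Irgm1 a pair at -30 and -24. Igtp and Irgm2 carried the same arrangement, a GAS followed after 2 bases by an ISRE core. Their stretches aligned over 90 bases with 87 identical, so these neighbouring genes share much of this sequence and are not independent examples. Gbp7 had GAS matches at -106 and -87. The AP-1 matches, both TGAGTCA, lay at -102 in Gbp2 and -115 in Irgm1. The 300 bases of Ifi47, and the second window of Gbp3, held none of these letters. The start that RefSeq gives for Irgm2 lies inside the gene as the counts define it, whose first exon reaches back into Igtp. The whole printed stretch of Irgm1 and the ISRE match of Gbp2 also lie inside these genes as counted.

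**Figure D1:**
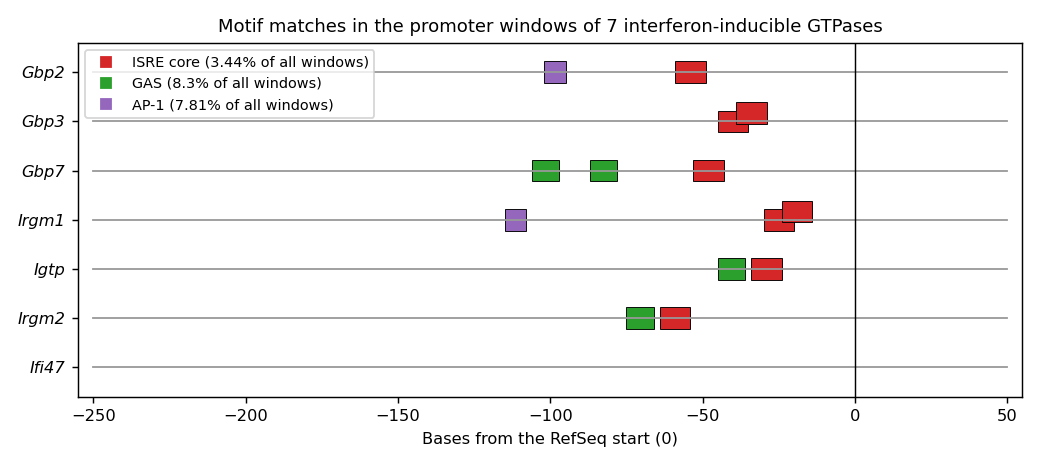
Position of the motif matches in the promoter windows of 7 members, in bases from the RefSeq start (position 0, vertical line). Boxes are matches on either strand and the legend gives the share of all 32851 windows that hold each motif. The ISRE core lies between -64 and the start in 6 of the 7 genes, and Ifi47 has no box.

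In the 7 libraries, the members were lower with Fos overexpression. The 8 measured members together reached 214.9 ± 14.1 CPM (counts scaled to a common library size with TMM factors, mean ± SD of 4 libraries) with Fos overexpression. Without it they reached 387.9 ± 11.4 CPM (mean ± SD of 3 libraries), a ratio of 1.80. The sums ran from 203.5 to 234.3 CPM in Gent+Fos OE and from 374.7 to 394.5 CPM in Gent, and no library of one group reached the other. Every member had a log2 fold change below 0 (Gent+Fos OE over Gent), from -1.43 to -0.39, with a median of -0.89 beside a median of 0.0 over all 17155 genes tested. These genes were chosen on this contrast, so their values and the calls below are a description, and no p-value is given for them. In 7 of the 8 members every Gent+Fos OE library was below every Gent library, as held for 12.2% of all genes tested. With edgeR's quasi-likelihood test and the limits used throughout (an adjusted p below 0.01 with a log2 fold change beyond 0.25 either way), 4 of the 8 members were called lower (Igtp, Irgm1, Ifi47 and Iigp1), against 0.28% of all genes. With DESeq2 and the same limits, 7 were called lower (all but Gbp7), against 2.14% of all genes. Leaving out 1 library changed the edgeR count to between 0 (without Gent+Fos OE replicate 3) and 6 (without Gent replicate 2), with 1 without Gent+Fos OE replicate 1, 2 or 4 or Gent replicate 3, and 2 without Gent replicate 1. Nothing is read from these shares, since the choice of the genes used the same contrast. The limit fell between Igtp, Irgm1, Ifi47 and Iigp1, whose log2 fold changes were -0.97, -0.85, -1.43 and -0.93, and Gbp2, Gbp3, Irgm2 and Gbp7, with -0.73, -1.02, -0.66 and -0.39.

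**Figure D2:**
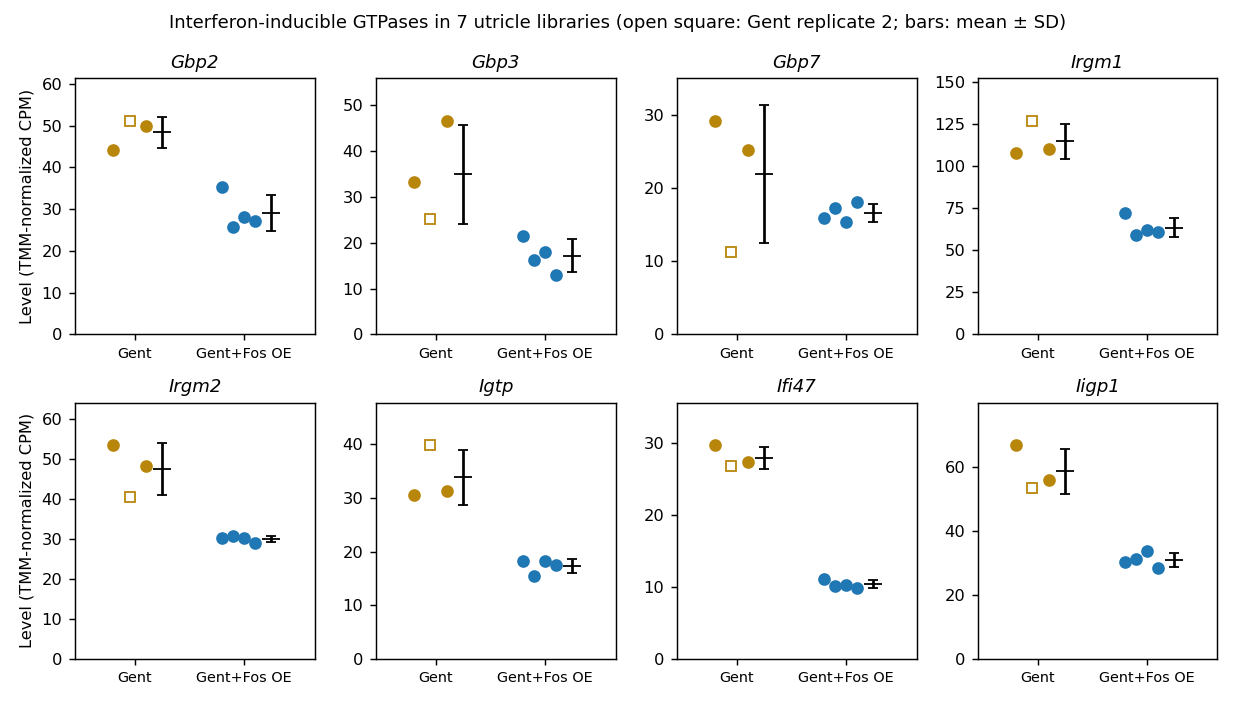
Level of the 8 measured members in each library (TMM-normalized CPM, linear axis from 0). Points are libraries, open squares are Gent replicate 2, and bars give the mean ± SD of a group. In every panel but that of Gbp7 all 4 Gent+Fos OE points lie below all 3 Gent points.

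The effector and accessory IRG genes are described first. Ifi47 (ENSMUSG00000078920, also known as Irgd) lies at chr11:49076587-49096974 (mm10, plus strand). It had 11.1, 10.04, 10.3 and 9.87 CPM in Gent+Fos OE replicates 1 to 4, and 29.6, 26.8 and 27.2 CPM in Gent replicates 1 to 3. This was the widest separation among the members, with the lowest Gent library 2.40 times the highest Gent+Fos OE library and a log2 fold change of -1.43 ± 0.13 (SE). The spread within groups was narrow, with coefficients of variation of 5.43% and 5.46%. Of its exonic bases, 4.49% are shared with Or2v1, and reads that touch both genes were not counted. Iigp1 (ENSMUSG00000054072, chr18:60376027-60392634, plus strand) is the best studied effector, which binds to parasite vacuoles. It had 30.2, 31.0, 33.8 and 28.3 CPM with Fos overexpression and 66.6, 53.4 and 55.8 CPM without. The groups were apart, and the log2 fold change was -0.93 ± 0.13.

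The regulatory IRG genes include Irgm1, the member with most reads. Irgm1 (ENSMUSG00000046879, chr11:48861968-48871683, minus strand), which also takes part in autophagy and in mitochondrial upkeep, had 71.9, 59.1, 62.1 and 60.8 CPM in Gent+Fos OE. In Gent it had 107.6, 126.7 and 110.0 CPM, and the log2 fold change was -0.85 ± 0.12. Replicate 1 was the highest Gent+Fos OE library for Irgm1 and still lay well under the lowest Gent library, which was 1.495 times as high. Igtp (ENSMUSG00000078853, chr11:58199556-58207591, plus strand) had 18.2, 15.4, 18.2 and 17.4 CPM in Gent+Fos OE against 30.5, 39.8 and 31.3 CPM in Gent, a log2 fold change of -0.97 ± 0.14. Irgm2 (ENSMUSG00000069874, chr11:58199618-58222782, plus strand), whose protein is found at the Golgi, had 30.2, 30.8, 30.2 and 28.9 CPM against 53.5, 40.5 and 48.4 CPM. Its Gent+Fos OE libraries were the most alike of all members (coefficient of variation 2.70%), and the log2 fold change was -0.66 ± 0.13. Irgm2 and Igtp overlap on the same strand, with 8.01% of the exonic bases of Igtp and 4.39% of those of Irgm2 shared, and reads in the shared part were counted for neither.

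The GBP members lie side by side on chromosome 3. Gbp2 (ENSMUSG00000028270, chr3:142620602-142638008, plus strand), whose protein is tethered to membranes by a lipid tail, had 35.2, 25.8, 28.1 and 27.1 CPM in Gent+Fos OE. In Gent it had 44.1, 51.1 and 50.0 CPM, with a log2 fold change of -0.73 ± 0.14, and the groups were apart. Gbp3 (ENSMUSG00000028268, chr3:142560026-142573209, plus strand) had 21.5, 16.1, 18.1 and 13.1 CPM against 33.2, 25.2 and 46.5 CPM. Its log2 fold change of -1.02 ± 0.22 was the second largest among the members, but the Gent libraries varied widely (coefficient of variation 30.9%) and Gent replicate 2 came within 1.17 times the highest Gent+Fos OE library. Gbp7 (ENSMUSG00000040253, chr3:142530342-142550149, plus strand), which is linked to the assembly of the oxidase that makes superoxide, had 15.9, 17.3, 15.5 and 18.1 CPM against 29.2, 11.3 and 25.3 CPM. Gbp7 was the only member whose groups overlapped. Gent replicate 2 was below all Gent+Fos OE libraries, and the other Gent libraries were above all of them. Its log2 fold change was -0.39 ± 0.26 with all libraries and -0.71 without Gent replicate 2. It was -0.14 without Gent replicate 1 and -0.28 without Gent replicate 3.

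Per length, the order of the members was close to the same in both groups. In Gent, Irgm1 (19.8 ± 1.79 RPKM, which is CPM per kilobase of exon, SD, n = 3), Gbp2 (19.2 ± 1.48) and Igtp (16.8 ± 2.54) were highest, and neighbours among these overlapped between libraries. Irgm2 (12.9), Ifi47 (11.3), Gbp3 (10.7) and Iigp1 (10.1 RPKM) followed, each overlapping with the next, and Gbp7 was lowest at 3.91 ± 1.68 RPKM. In Gent+Fos OE, Gbp2 (11.6 ± 1.68 RPKM, n = 4) and Irgm1 (10.9 ± 0.993) led and overlapped. Ifi47 moved from the fifth place to the seventh, at 4.18 ± 0.228 RPKM. Its share of the summed CPM of the members was 6.91% to 7.51% in Gent and 4.75% to 4.88% in Gent+Fos OE, the clearest shift in their make-up.

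Gent replicate 2 differed from the other libraries in a length effect, with a Spearman correlation across genes of -0.496 between exonic length and its deviation from the mean of all libraries (-0.221 to 0.325 elsewhere). Libraries held 27879889 to 34335214 counts. Fos itself was at 148.8 to 167.0 CPM in Gent+Fos OE and 34.6 to 40.6 CPM in Gent (log2 fold change 2.01 ± 0.13, edgeR adjusted p = 0.000142), in the direction of the labels. Of the 8 members, 5 were lowest in replicate 2 among the Gent libraries (Gbp3, Gbp7, Irgm2, Ifi47 and Iigp1), and 3 were highest there (Gbp2, Igtp and Irgm1). Irgm1 and Gbp7, of similar length (5810 and 5614 exonic bases), lay on opposite sides. The median log2 fold change of the members was -0.81 without Gent replicate 2 and -0.89 after a correction for gene length. Within groups, the 28 pairs of members had a median Pearson r of 0.32 over the 7 libraries, from -0.88 for Gbp7 with Igtp to 0.91 for Gbp7 with Irgm2. These libraries share depth and the length effect in replicate 2, so the correlations are a description only.

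Of the other interferon-inducible GTPases, 18 were matched and 17 tested. Tgtp1 and Tgtp2, effector IRG genes on chromosome 11, fell, and 0 rose (edgeR adjusted p under 0.01). Tgtp1 had 4.98, 4.59, 3.89 and 3.89 CPM in Gent+Fos OE and 12.1, 11.9 and 15.2 CPM in Gent, a log2 fold change of -1.58 ± 0.18 (edgeR adjusted p = 0.00246). Tgtp2 had 5.41, 4.72, 4.88 and 4.78 CPM against 9.93, 14.7 and 10.9 CPM, a log2 fold change of -1.26 ± 0.18 (edgeR adjusted p = 0.00795). These are near-identical copies, reads that fit both were not counted, and the split between them is uncertain. Both calls were lost without Gent+Fos OE replicate 3 or 4 or Gent replicate 3, and that of Tgtp2 also without Gent+Fos OE replicate 1 or 2, with edgeR adjusted p up to 0.0168 for Tgtp1 and 0.0440 for Tgtp2. DESeq2 also called Gbp5, a GBP that acts in inflammasome assembly and lies beside the members on chromosome 3 (log2 fold change -0.86 ± 0.20, edgeR adjusted p = 0.0571). In all, 15 of the 17 had log2 fold changes below 0, with a median of -0.46 (-0.72 without Gent replicate 2) beside 0.0 over all genes tested.

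The family lies in 6 chromosomal clusters. The members, which were chosen on this contrast, are set aside in the counts of this paragraph, and the cluster of Igtp and Irgm2 holds no other gene of the family. On chromosome 11, the 6 other tested genes between Irgm1 and Ifi47 had a median log2 fold change of -0.55, and 2 of them, Tgtp1 and Tgtp2, were called lower (0.28% of all genes tested). The 3 on chromosome 18 had a median of -0.77 with 0 called, and Gbp5 was the only other gene tested on chromosome 3. The GBP cluster on chromosome 5, which holds no member, had a median of -0.26 over 5 genes. There, Gbp6 had a log2 fold change of -0.46, Gbp4 -0.35, Gbp8 -0.26, Gbp10 -0.14 and Gbp9 0.01, and 0 were called. Gbp9 had 35.1 to 44.04 CPM in Gent+Fos OE against 48.2, 20.7 and 47.5 CPM in Gent, so replicate 2 lay below all other libraries. Without that library the log2 fold changes of these 5 genes ran lower, with a median of -0.40, and Gbp6 was called (-0.65, edgeR adjusted p = 0.00464). With all libraries Gbp6 had an edgeR adjusted p of 0.139. Over the fits that left out 1 library, its log2 fold change ran from -0.65 to -0.32, with an edgeR adjusted p up to 0.304. The very large GTPases Gvin1 and Gvin2 on chromosome 7 were under 2 CPM in every library, with log2 fold changes of -0.93 ± 0.48 and -1.07 ± 0.52 that did not pass the test. Whether the clusters differ from each other was not tested.

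Genes around the clusters gave a local background. The 3 nearest tested genes on each side of each cluster numbered 36, and Psme2b, a proteasome activator copy, lies inside the first one on chromosome 11. Of these 37 genes 0 were called by edgeR, and the log2 fold changes ran from -0.80 to 0.76 with a median of 0.03. Psme2b itself had the lowest adjusted p of these, with a log2 fold change of -0.80 ± 0.16 (edgeR adjusted p = 0.0325, named after its value was seen).

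**Figure D3:**
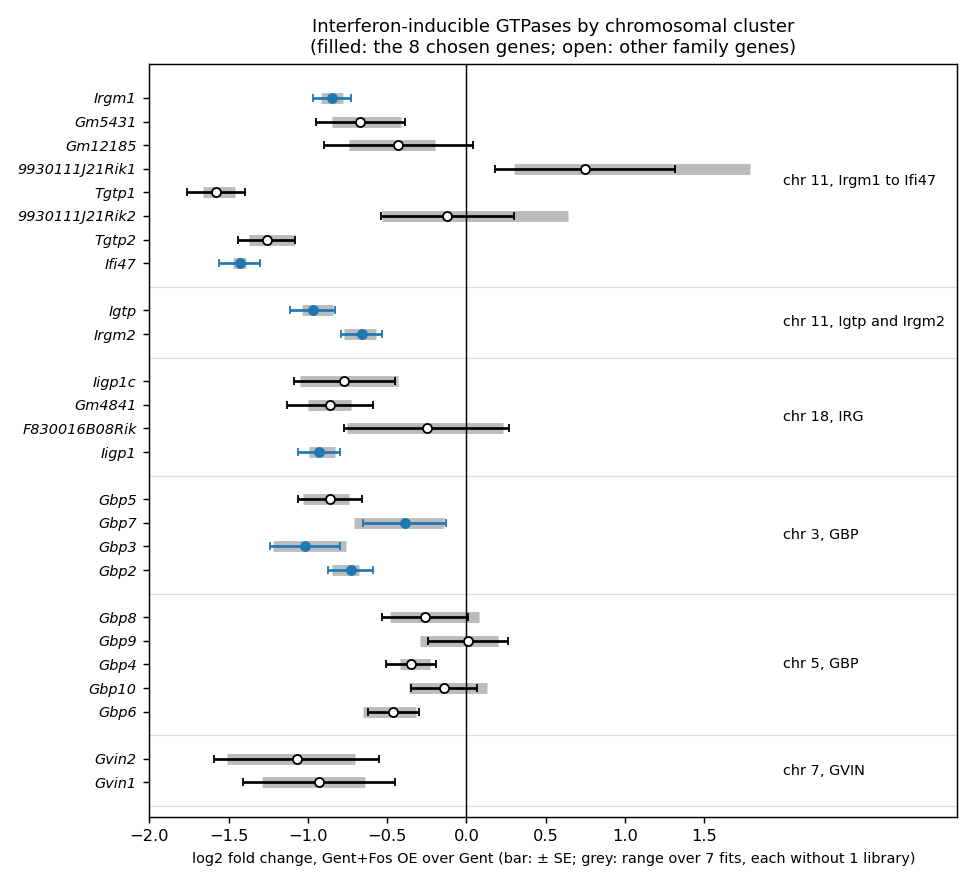
Log2 fold change (Gent+Fos OE over Gent) of the 25 tested interferon-inducible GTPases by chromosomal cluster, with filled points for the 8 members, error bars of ± 1 SE and grey bands for the range over 7 fits that each leave out 1 library. All 8 members, chosen on this contrast, and 15 of the 17 other genes lie below 0.

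GTPases of the same fold that interferon does not induce served as a second background. Of 12 matched dynamins, mitofusins, atlastins and IRG relatives, 11 were tested and 0 were called by edgeR or DESeq2. At an unadjusted p under 0.05 (edgeR), 3 of the 11 were higher and 0 lower, beside 1901 and 2300 of all 17155 genes tested. Their median log2 fold change was 0.19 and 10 of the 11 lay above 0, with a median of 0.09 without Gent replicate 2. After the gene length correction the median was 0.05. Dnm3, a dynamin of neurons with 24452 exonic bases, had the largest difference, 0.63 ± 0.22 (edgeR adjusted p = 0.143), which was 0.02 after that correction. Atl1, which shapes the endoplasmic reticulum, had 0.54 ± 0.21 (0.31 corrected) and Irgq, an IRG relative in autophagy, 0.37 ± 0.16 (0.26 corrected), and neither passed the test.

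The interferon genes themselves gave next to no reads. Of 21 interferon genes, 18 had 0 counts in all 7 libraries, Ifng and all listed interferon alpha genes among them. Ifnb1 was at most 0.22 CPM and Ifnz at most 0.35 CPM. Ifnk, the only one tested, was at most 0.50 CPM and did not pass the test (log2 fold change 0.87 ± 0.88, edgeR adjusted p = 0.554). A count of 0 allows up to 3 counts, or 0.0874 to 0.108 CPM depending on the library (counting error only). Reads that hit several places were not counted, so transcripts of closely alike genes could be missed at any depth. A difference in interferon transcripts was therefore not detectable in these counts.

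Of the 11 genes reported for interferon receptors and the JAK-STAT relay, 0 were called by edgeR. At an unadjusted p under 0.05, 6 were lower and 1 higher, beside 2300 and 1901 of all 17155 genes tested. DESeq2 called 2 lower, Stat2 and Irf9, against 2.14% of all genes. Stat2, which carries the type I interferon signal to the ISRE, had 57.4, 47.6, 43.4 and 43.0 CPM in Gent+Fos OE and 86.8, 64.7 and 69.4 CPM in Gent. The groups were apart, with a log2 fold change of -0.62 ± 0.15 that missed the limit (edgeR adjusted p = 0.0656). Irf9, its DNA-binding partner, had 48.8, 42.8, 41.9 and 39.2 CPM against 60.7, 76.7 and 58.2 CPM, also apart (-0.59 ± 0.14, edgeR adjusted p = 0.0588). The receptor genes had log2 fold changes of -0.08 for Ifnar1, -0.38 for Ifnar2, -0.37 for Ifngr1 and -0.38 for Ifngr2. Ifnlr1, the receptor of type III interferon in epithelia, was the only receptor gene above 0 (0.54 ± 0.16, edgeR adjusted p = 0.104). The kinases Jak1, Jak2 and Tyk2 had log2 fold changes between -0.12 and 0.12.

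Among the 8 interferon regulatory factors, Irf7 fell and Irf4 rose. At an unadjusted p under 0.05 (edgeR), 4 of the 8 were lower and 1 higher, beside 2300 and 1901 of all 17155 genes tested. Irf7, which drives interferon genes and is itself induced by interferon, had 25.3, 20.9, 19.7 and 21.2 CPM in Gent+Fos OE and 62.8, 71.9 and 77.8 CPM in Gent (log2 fold change -1.70 ± 0.14, edgeR adjusted p = 0.00056). Irf7 was past the limit without any 1 library (highest adjusted p 0.00717). Irf4, best known from lymphocytes and melanocytes, moved the other way, with 7.52, 10.6, 9.31 and 8.70 CPM against 1.75, 2.72 and 2.28 CPM (log2 fold change 2.0 ± 0.22, edgeR adjusted p = 0.00246). Calls in that direction were made for 0.134% of all genes by edgeR and 1.75% by DESeq2. The call for Irf4 was lost without Gent+Fos OE replicate 3 or 4 or Gent replicate 3 (highest adjusted p 0.0168), while the log2 fold change stayed between 1.85 and 2.15. Irf5, a factor of macrophages, had -0.70 ± 0.19 (edgeR adjusted p = 0.0859).

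Of 11 inhibitors of interferon signalling, Usp18 fell and 0 rose. Usp18, an interferon-induced protease that blocks the receptor Ifnar2, had 10.3, 8.73, 12.2 and 8.56 CPM in Gent+Fos OE and 26.9, 41.7 and 23.6 CPM in Gent (log2 fold change -1.63 ± 0.21, edgeR adjusted p = 0.00481). Its call was lost without any 1 of the Gent+Fos OE libraries or without Gent replicate 3 (edgeR adjusted p up to 0.0247). Socs1, which shuts off Janus kinases, had -0.87 ± 0.23 (edgeR adjusted p = 0.0802), and the phosphatase gene Ptpn6 -0.75 ± 0.17 (edgeR adjusted p = 0.0503). DESeq2 called Usp18 and Ptpn6 lower. The autophagy conjugation genes, whose products place GBP and IRG proteins on vacuoles, gave 0 calls among 10 tested by edgeR or DESeq2. At an unadjusted p under 0.05 (edgeR), 2 of the 10 were lower, beside 2300 of all 17155 genes tested. The median of the 10 was -0.21, or -0.10 without Gent replicate 2. Gabarap had the largest difference (-0.53 ± 0.18, edgeR adjusted p = 0.131), with Gent replicate 2 at 545.2 CPM against 314.3 and 360.3 CPM in the others. Map1lc3b had -0.40 ± 0.14 and Map1lc3a -0.38 ± 0.19, and both were also highest in Gent replicate 2. Without that library the log2 fold changes were -0.26 for Gabarap, -0.22 for Map1lc3b and -0.11 for Map1lc3a.

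**Figure D4:**
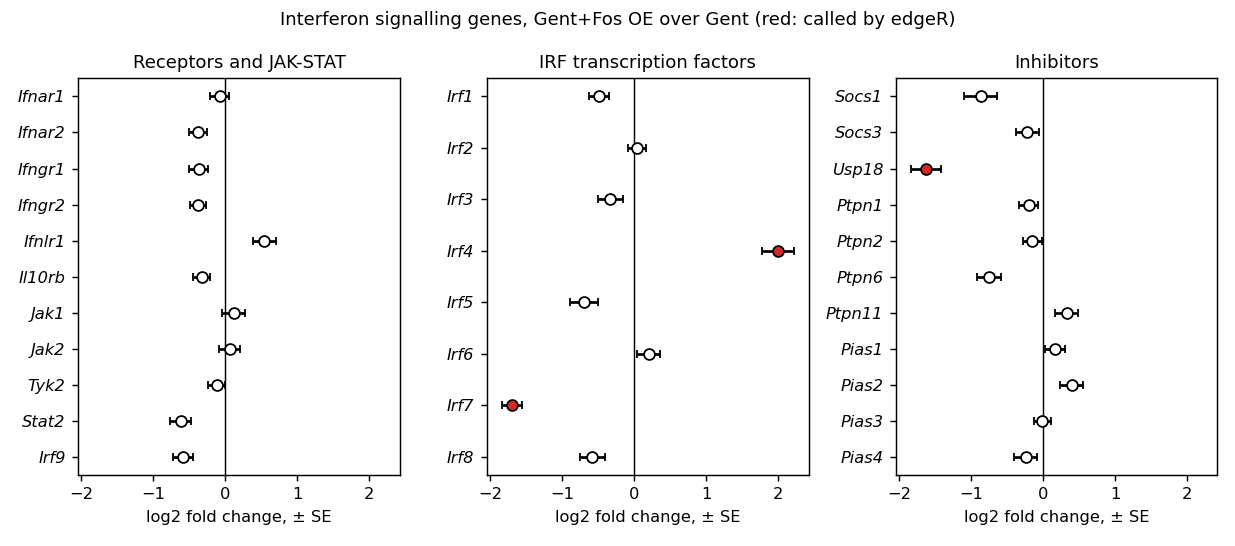
Log2 fold change (Gent+Fos OE over Gent) of interferon receptors and JAK-STAT genes, interferon regulatory factors and inhibitors, with error bars of ± 1 SE and red points for genes called by edgeR. Irf7 and Usp18 lie at -1.70 and -1.63, Irf4 lies at 2.0, and no receptor or JAK-STAT gene is red.

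The same letters were looked for in all tested genes with a RefSeq promoter window. The 484 tested genes with an ISRE core had a median log2 fold change of -0.13, beside -0.01 over the 12913 with a window, and edgeR called 16 of them lower (3.31%, against 0.28% of all genes tested) and 0 higher. The 16 include the members Igtp and Irgm1, which were chosen on this contrast. With the members set aside, 33 genes called lower had a window, and 14 of them (42.4%) held an ISRE core, against 3.99% of all genes with a window. Of the same 33, 6 (18.2%) held a GAS match, against 9.55% of all genes, and 4 (12.1%) an AP-1 match, against 8.97%. GAS matches gave a median of -0.05 over 1074 genes, with 7 called lower and 2 higher. The 904 tested genes with an AP-1 match had a median of 0.02, with 5 called lower and 2 higher. These are counts with no test, and genes with a shared promoter sequence often lie in families.

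Genes with a pattern like that of the members were sought among 14829 tested genes of at least 1 CPM, by Pearson r with the mean z-score of the 8 members over the 7 libraries. The 10 closest were Cd74 (r = 0.994), H2-Q4 (0.986), C1ra (0.984), Zbp1 (0.982), Mmp13 (0.981), Tgtp1 (0.981), Apol9a (0.978), Pno1 (0.977), Mlkl (0.976) and Sp100 (0.974). The ranking rests mainly on the step between the groups. Their log2 fold changes ran from -0.21 for Pno1, which acts in ribosome assembly, to -1.99 for the collagenase gene Mmp13. Cd74, the chaperone of MHC class II, stood at 8.64 ± 0.810 CPM with Fos overexpression and at 29.3 ± 3.28 CPM without (mean ± SD), and Zbp1, a sensor of Z-form nucleic acid, 11.3 ± 1.09 and 35.2 ± 1.37 CPM. With each group centred on its own mean, the 10 closest were Abca8b, Plcl1, Bcl11a, P3h2, Cables2, Paxip1, Mllt3, Rnf152, Srsf6 and Aspn, with r from 0.951 to 0.977. None of the 10 was shared between the rankings.

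Markers of some cell types moved with the members. Of 13 macrophage markers, 12 had log2 fold changes below 0, with a median of -0.65. Fcgr1, an interferon-inducible antibody receptor, was called lower by edgeR (-1.25 ± 0.18, adjusted p = 0.00771), against 0.28% of all genes. DESeq2 called 6 of the 13 lower, against 2.14% of all genes. The summed level of the 13 ran from 1194 to 1921 CPM in Gent+Fos OE and from 2104 to 2540 CPM in Gent. In Gent+Fos OE replicates 1 to 4, the macrophage sums were 1629, 1194, 1409 and 1921 CPM and those of the members 234.3, 205.7, 216.2 and 203.5 CPM. Replicates 1, 2 and 3 had the same order in both sums, and replicate 4 was highest in the first and lowest in the second. In Gent replicates 1 to 3, the macrophage sums were 2540, 2491 and 2104 CPM beside 394.3, 374.7 and 394.5 CPM for the members. The defining markers Adgre1 (281.6 to 622.3 against 639.5 to 824.9 CPM) and Csf1r (104.7 to 150.0 against 175.4 to 258.0 CPM) were present in every library. Melanocyte markers ran from 45.7 to 50.9 CPM against 87.6 to 124.0 CPM. Of 6 tested, edgeR called Dct (-1.40) and Tyrp1 (-1.87) lower, against 0.28% of all genes. DESeq2 called 5 lower, against 2.14% of all genes. In 5 every Gent+Fos OE library was below every Gent library, as held for 12.2% of all genes tested. The neutrophil list summed to 0.677 to 1.78 CPM against 9.07, 2.15 and 3.61 CPM in Gent replicates 1 to 3. These levels are near the floor and highest in Gent replicate 1. Of its 6 markers, 2 were tested and 0 were called by edgeR or DESeq2. Among markers of T and NK cells, Ncr1, Nkg7 and Gzma were at 0 in all libraries. Of that list, Cd4 held most reads, and its sum was 15.04 to 31.3 CPM against 24.4 to 33.6 CPM. The part of these cell types in the lower levels of the members was not tested. Hair cell markers, which define the tissue, were present, and 0 of 10 were called by edgeR. At an unadjusted p under 0.05, 2 were higher, beside 1901 of all 17155 genes tested, and DESeq2 called 1 higher (1.75% of all genes). Of 10 supporting cell markers, Otog rose (1.25 ± 0.18, edgeR adjusted p = 0.00852). At an unadjusted p under 0.05, 4 were higher and 0 lower, beside 1901 and 2300 of all 17155 genes tested. DESeq2 called 2 of these 10 higher, against 1.75% of all genes. The summed level of the 10 was 2197 to 2596 CPM in Gent+Fos OE and 1555 to 1752 CPM in Gent. Without Otog the groups overlapped (1235 to 1423 CPM against 1110 to 1286 CPM), and the median log2 fold change of the list was 0.16. The lists of mesenchyme, endothelium, Schwann cells and neurons had median log2 fold changes of -0.06, 0.07, -0.3 and 0.13, with 0 called by edgeR. DESeq2 called 1 endothelial marker higher and 1 Schwann cell marker lower. The calls of Fcgr1, Dct, Tyrp1 and Otog were each lost in 5 or 6 of the 7 fits that left out 1 library. Those without any 1 Gent+Fos OE replicate or without Gent replicate 3 were among them (edgeR adjusted p up to 0.0439, 0.025, 0.0445 and 0.0415).

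**Figure D5:**
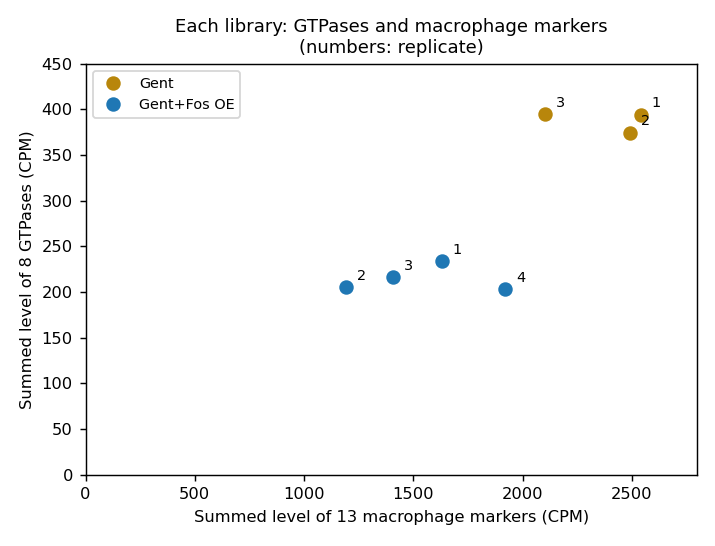
Summed level of the 8 members against that of 13 macrophage markers in each library, both in TMM-normalized CPM with axes from 0, numbered by replicate. The 4 Gent+Fos OE libraries lie between 203.5 and 234.3 CPM for the members while their macrophage sums span 1194 to 1921 CPM, and the 3 Gent libraries lie above them on both axes.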

How the data were processed

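RNA was measured by sequencing in 7 libraries of 12 pooled utricles, 4 Gent+Fos OE and 3 Gent by their labels, which call them biological replicates. The authors deposited whole-number read counts per gene, not normalized. Per the file headers, these came from featureCounts 2.0.6 and an mm10 annotation, with paired-end input, no strand setting, both reads of a pair counted separately and no reads that hit several places or genes, so the precision of a value comes from the spread between libraries. Reads from overlapping antisense genes cannot be told apart. The submitters' processing notes name Trim Galore 0.6.10, HISAT2 2.2.1 and DESeq2 1.34.0, and the methods of the study name mm39, which differs from the headers. Coordinates are those of the files.

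Symbols were taken from GENCODE vM39 by Ensembl ID. RefSeq GRCm38.p6 genes were joined by symbol and place or by 80% reciprocal overlap (25450 genes). Genes were filtered with filterByExpr (17155 kept), scaled by TMM and compared with the quasi-likelihood test of edgeR 4.0.16 in R 4.3.3, without covariates. Calls required a p below 0.01 after Benjamini-Hochberg adjustment over all tested genes, and a log2 fold change beyond 0.25 in either direction. Standard errors are those of the fitted log2 fold change. Alternatives were DESeq2 1.42.0 (genes with a total of at least 10), limma-voom (limma 3.58.1), other scalings, no filter, a loess correction for gene length (span 0.3), a replicate block and leaving out each library. The fits were checked on simulated counts with known changes. Figures were drawn with matplotlib 3.10.9.

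The members, gene lists and motifs were chosen with earlier results of these data known. Named genes are the members, the called genes and the 3 largest differences of each pathway list, the 10 genes most like the members over the libraries and the 10 within groups, and Fos. Results of 1 gene are not reported here. Other genes are named to complete a receptor, a kinase family or a chromosomal cluster, as interferons with reads, or as markers that define a cell type, and were chosen after their values were seen.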

Additional observations from a re-analysis of the deposited data

Results flagged for a closer look

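Among 66 genes checked for a Gent+Fos OE library far from the other 3, 1 was picked out, where chance alone gives about 5% of such groups. Dnm1l, a dynamin that divides mitochondria, had 128.4 CPM in Gent+Fos OE replicate 4, against 123.4 to 123.9 CPM in the other replicates of the group. No member had a library picked out in this way.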

How the results depend on the processing

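The 15 alternatives gave 120 values for the log2 fold changes of the 8 members, all below 0. Of these, 118 moved by less than the spread between replicates, and the other 2 were those of Ifi47 with the gene length correction, -1.33 alone and -1.30 with the replicate block. Over all genes, 48 were called lower and 23 higher. DESeq2 called 336 and 275, no filter gave 141 and 63, and the length correction gave 95 and 35. Leaving out 1 library gave 3 to 93 lower and 2 to 45 higher, lowest without Gent+Fos OE replicate 3 and highest without Gent replicate 2. Deviations of same-numbered libraries had correlations of 0.064, -0.038 and 0.032, which cannot tell whether these libraries were prepared together. The block, in which Gent+Fos OE replicate 4 stands alone, gave 0 lower and 0 higher, or 31 lower and 17 higher with the length correction. Of the 8 members, 4 were called lower, 3 with limma-voom, 0 with the block and 1 with the block and the length correction. Of the other GTPases, 2 were called lower, 1 with limma-voom, 0 with the block with or without the length correction, and 0 to 4 when leaving out 1 library. Of receptors and JAK-STAT genes, 0 were called lower, 2 with DESeq2 and 0 under every other alternative. Among IRF genes, Irf7 and Irf4 both lost their call in the block (0 lower, 0 higher), with 1 lower and 1 higher called in the block with the length correction, and leaving out 1 library gave 0 to 1 higher. The cause of these shifts was not tested. Few or no counted reads limit the interferon genes and the Gvin genes.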
